A study of Mus musculus with 661 samples.

Results

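Along the inner surface of bone, CD51 marks a mixed set of skeletal cells, and the surface receptor PDGFRα splits that set into mOPr, which carry it, and OPr, which do not. This report compares the young cells of these populations gene by gene and by the clusters they fall in. The members are all cells labelled young mOPr (26) and all cells labelled young OPr (44), 70 of the 661 cells of a study of bone marrow stroma in young and old mice. The donors were wild type C57BL/6 mice of about 2 months. Old mOPr and old OPr cells, compared near the end, came from mice of about 2 years. Cells were freed from crushed bones with collagenase and sorted as negative for Ter119, CD45, CD31, Sca-1 and LepR and positive for CD51, then by PDGFRα. Each cell was sequenced alone from a plate well, full length, without molecular tags. No label names the mouse a cell came from, so each population counts as 1 sample, no test was run, and no interval covers the spread between mice: those on levels cover the counting of reads, those on cluster shares the sampling of cells.

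The endosteum, the lining between bone and marrow, holds progenitors that mature into osteoblasts, the cells that lay down and mineralize bone. PDGFRα binds platelet-derived growth factors and is common on uncommitted mesenchymal cells. Osteocalcin, the product of *Bglap*, is secreted by osteoblasts late in maturation. Bone ends also hold chondrocytes, which build cartilage from type II collagen and aggrecan, and fibroblast-like cells of periosteum, tendon and joint lining, so a digest of crushed bone can release several skeletal lineages.

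Reads were ample in nearly every cell, and mOPr and OPr detected similar numbers of genes. Nuclear counts had a median of 516983.5 in mOPr (329854 to 966204) and 686077 in OPr (79352 to 1261596), with 1 OPr cell under 100000. Median genes detected were 5827 and 6009, and 4570.5 and 4442 after thinning each cell to 100000 counts, where a gene is detected at 1 count. Mitochondrial transcripts made up a median of 1.39% and 1.48% of counts, and at most 2.69% and 12.9% in a cell. Library numbers fall in 2 ranges, which hold 15 and 11 of the mOPr cells and 13 and 31 of the OPr cells. Numbers of old OPr cells lie inside the second range, between those of young cells, so it may pool separate sets. It was not divided. Median counts were 472310 in mOPr and 998641 in OPr in the first range, and 644280 and 538945 in the second. Levels below are CPM of the summed nuclear counts with 95% Poisson intervals, ratios are log2 of mOPr over OPr with 1 CPM added (a bare value after a gene is this ratio), and a cell detects a gene at 10 CPM or more.

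The receptor that defined the gate can be checked in the RNA. *Pdgfra* (ENSMUSG00000029231.15, chromosome 5, 75152292 to 75198215 in GRCm38) separated the populations, which checks the labels and is no finding of its own. It stood at 464 CPM (453 to 475) in mOPr and 93.3 (89.8 to 96.9) in OPr, was detected in 23 of 26 and 12 of 44 cells (88.5% and 32.6% after thinning), and had per-cell medians of 348 and 0.501 CPM. Its ratio of 2.30 did not pass the size rule used below, because the ranges gave 0.95 and 4.63. Within OPr, 80.3% of *Pdgfra* counts came from 3 cells of cluster M1, at 395 to 1009 CPM. The OPr cells in OPr-like clusters held 14.1 CPM. Those 3 cells carry *Pdgfra* RNA against their PDGFRα-negative label, and the ratio of every gene said below to pass was also taken without M1 and M2. Sca-1 is encoded by *Ly6a*, which stood at 2.19 CPM in mOPr and 18.6 in OPr, against 912 in young MSC-S, the endosteal population sorted as Sca-1-positive. *Ptprc*, which encodes CD45, had 1 and 4 counts in all.

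Osteocalcin marks cells at the osteoblast stage, beyond the progenitors that the gates are named for. *Bglap* (ENSMUSG00000074483.2, chromosome 3, 88383501 to 88384464) was detected in a minority of cells of both populations, and its summed level and its spread over cells ran in opposite directions. The level was 666 CPM (653 to 679) in mOPr and 143 (139 to 148) in OPr, a ratio of 2.21 (3.50 and 2.07 in the ranges). Yet 6 of 26 mOPr cells detected it against 18 of 44 OPr cells (30.8% and 41.9% after thinning), and the median cell had 0 in both. A single M5 cell at 14389.6 CPM supplied 76.5% of the mOPr counts, and without the top cell of each population the ratio was 0.81. In OPr the transcript lay in 13 of 15 M3 cells (55.4% of counts) and 5 of 14 M5 cells (44.6%). A single M5 cell, at 2165 CPM, held 37.1% of the OPr counts.

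The authors had grouped the mesenchymal cells, apart from the endothelial ones, into 16 clusters. These were read as MSC-L-like (M1 and M2, the marrow LepR-positive type), OPr-like (M3 to M5) and MSC-S-like (M6 to M16). Most young mOPr cells fell in clusters of the Sca-1-positive MSC-S, although the gate had excluded Sca-1, while most OPr cells fell in OPr-like clusters. MSC-S-like clusters held 16 of 26 mOPr cells (61.5%, 40.6% to 79.8%) and 5 of 44 OPr cells (11.4%, 3.79% to 24.6%), all 5 of the latter in M15. OPr-like clusters held 8 of 26 mOPr cells (30.8%, 14.3% to 51.8%) and 36 of 44 OPr cells (81.8%, 67.3% to 91.8%). The MSC-S-like share of mOPr was 10 of 15 cells in the first range and 6 of 11 in the second.

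Inside the OPr-like clusters the populations divided again. M3 was the largest OPr cluster, with 15 of 44 OPr cells (34.1%, 20.5% to 49.9%), and had no mOPr cell, where 0 of 26 still allows a share up to 13.2%. M4 held 7 OPr cells and 1 mOPr cell. M5 was shared, with 7 of 26 mOPr cells (26.9%, 11.6% to 47.8%) and 14 of 44 OPr cells (31.8%, 18.6% to 47.6%), and so was M15, with 7 and 5. M12 held 4 mOPr cells and no OPr cell, and M10, M11, M13, M14 and M16 held 1 mOPr cell each. The clusters were built from guide genes that also appear among the results, so cluster shares and gene ratios are not independent.

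**Figure D1:**
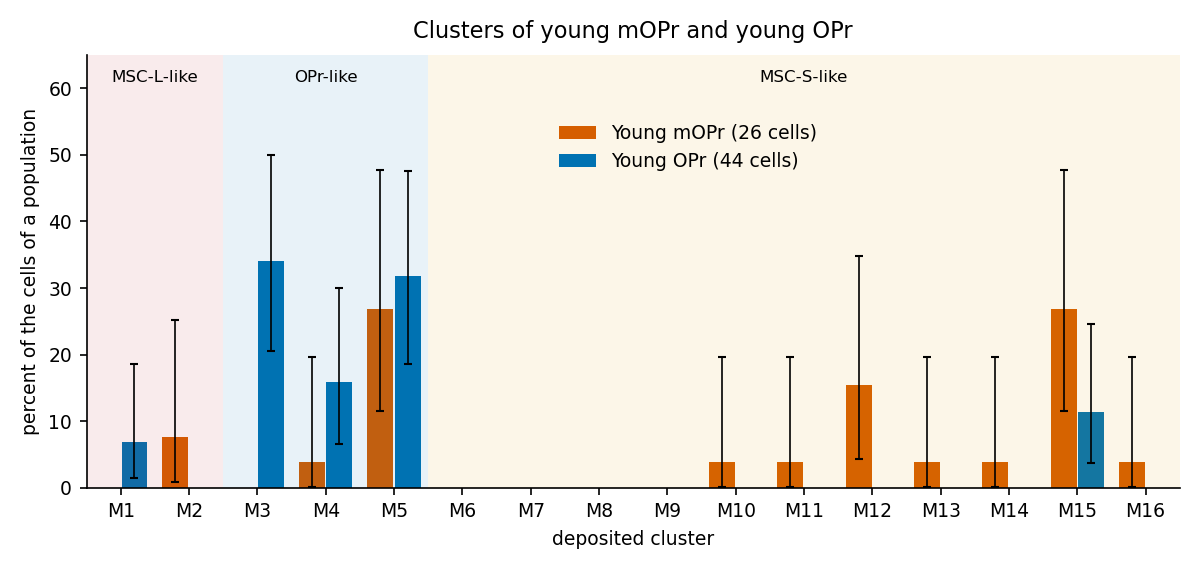
Percent of the cells of each population in each of the 16 clusters, with 95% binomial intervals, for young mOPr (26 cells) and young OPr (44 cells). M3 holds 15 OPr cells and 0 mOPr cells, while M12 holds 4 mOPr cells and 0 OPr cells.

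Across the genome the question was how many genes differ in level between the populations and in which direction. A gene passed the size rule when its ratio was at least 2-fold over all cells and in both ranges, in the same direction. Of 11551 genes tested, 743 (6.43%) were higher in mOPr and 1055 (9.13%) in OPr, and 9753 passed in neither direction. With cells left out or scaled otherwise, a gene can stop passing through 1 range or the count filter while its ratio over all cells stays past 2-fold, so losses below carry the ratio found there. Over all cells alone, 1888 and 2089 genes were past 2-fold. Of the genes that passed, 161 in mOPr and 179 in OPr had more than 50% of their counts in 1 cell of the higher population, and 79 of the OPr genes had no count in mOPr. The median ratio over all tested genes was 0.03, and moved to 0.21 with the mean of CPM over cells, 0.41 with size factors, which rest on 26 genes, 0.18 with thinned cells and -0.11 without top cells. The balance between directions depended on that choice: 41.3% of the genes that passed were higher in mOPr, against 55.4% with size factors, 55.1% with thinned cells, 51.4% without M3, 48% with the mean of CPM and 33.7% without top cells.

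**Figure D2:**
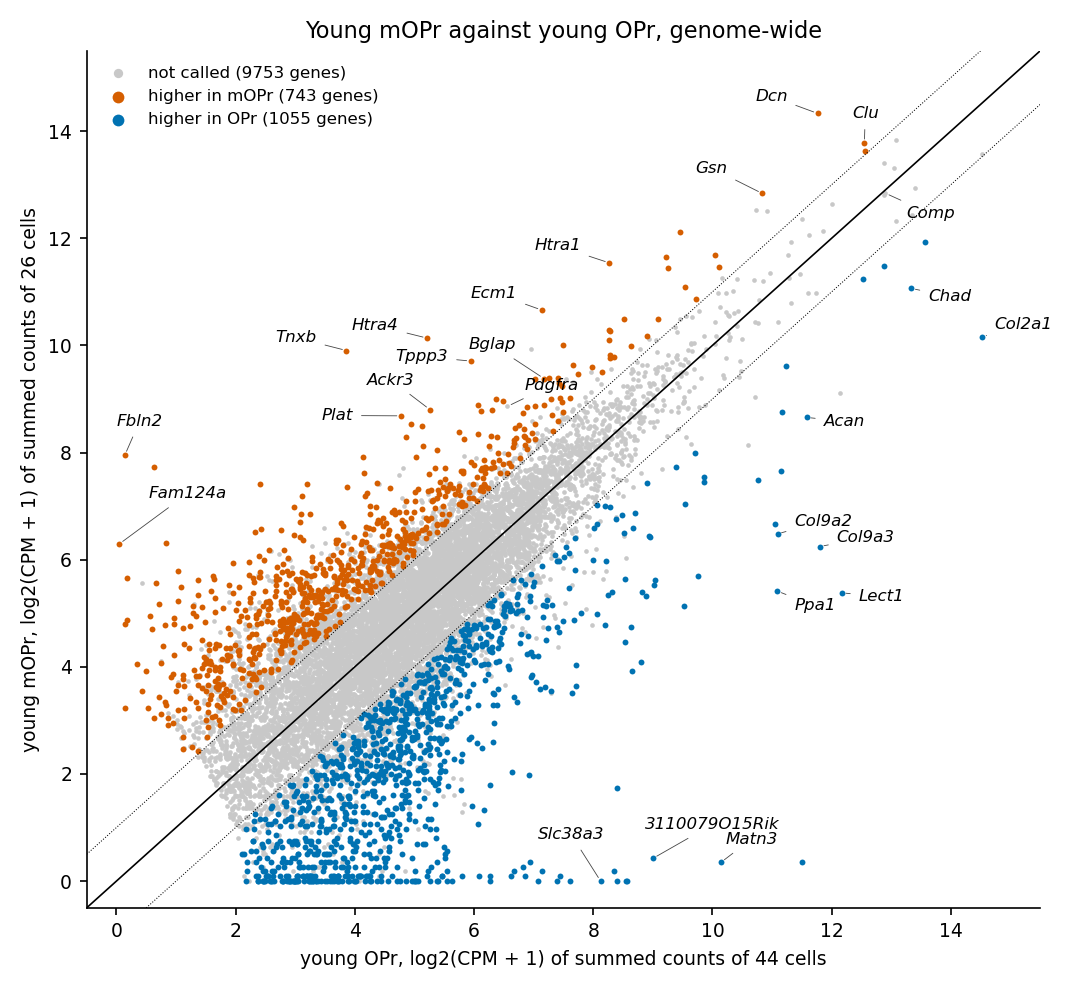
Level of the 11551 genes tested in young mOPr (vertical, 26 cells) against young OPr (horizontal, 44 cells), as log2 of CPM plus 1 of summed counts, each point a gene, with genes that passed the size rule coloured by direction. The largest ratios of the named genes are those of *Fbln2* (7.81) and *Matn3* (-9.79).

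The guide genes that the authors used fall into gene clusters A to F, and 426 of them were tested, with 77 higher in mOPr and 118 in OPr. Their direction differed between these gene clusters, which were built from how the cells vary. Of 130 in cluster F, which holds *Fbln2*, *Tnxb* and *Dcn*, 63 were higher in mOPr and 1 in OPr. Clusters B and C, which hold *Matn3* and *Col2a1*, ran the other way, with 42 of 50 and 37 of 43 higher in OPr and none in mOPr, and cluster D had 16 of 40 higher in OPr. Cluster E had 12 of 49 higher in mOPr and 2 in OPr, and cluster A, which holds *Cxcl12* and *Lepr*, 2 in mOPr and 20 in OPr of 114.

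The genes furthest toward mOPr have varied roles. The genes named here passed the size rule, had at least 1000 counts and detection in at least 40% of cells of the higher population, and no more than 50% of counts in 1 cell, and the 15 largest ratios of 246 such genes were taken. *Fbln2* (ENSMUSG00000064080.12, chromosome 6, 91212455 to 91272540) encodes fibulin-2, which binds elastic fibers and basement membrane. It reached 247 CPM (239 to 255) in mOPr with 3 counts in OPr, 2410.4-fold (824 to 11694) higher, and 11 mOPr cells and 1 OPr cell detected it. *Fam124a* had 1 OPr count and was 2272-fold (407 to 89829.9) higher in mOPr. *Tnxb*, for tenascin-X, a glycoprotein that ties collagen fibrils together, had 957 CPM (941 to 973) against 13.5 (12.2 to 14.9), a ratio of 6.05, and 86.1% of its mOPr counts lay in MSC-S-like cells. *Medag*, named for its role in adipocyte formation, had a ratio of 5.48 (78.4 and 0.784 CPM).

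Some of these names encode proteases. *Htra4* and *Htra1* encode secreted serine proteases of 1 family and had ratios of 4.93 and 3.27, the former at 1124 CPM (1107 to 1142) against 36 (33.9 to 38.3) and the latter at 2978 CPM (2950.2 to 3006) against 307 (301 to 314). *Plat* encodes tissue plasminogen activator and had a ratio of 3.91. *Ltbp4* encodes a protein that stores latent TGF-β in the matrix, with a ratio of 3.58 and 16 mOPr cells detecting it against 6 OPr cells. *Ackr3* encodes a receptor that removes the chemokine CXCL12, at 445 CPM (435 to 456) against 37.3 (35.1 to 39.5). The matrix glycoprotein gene *Ecm1* had the per-cell medians 684 and 0 CPM and was detected in 19 and 8 cells (80.8% and 30.2% after thinning). The others were *Ccdc3* (4.08), *Tppp3* (3.76; a tubulin-binding protein), *Ablim1* (3.50; an actin-binding protein), *Cdh13* (3.38; a cadherin held by a lipid anchor) and *Rerg* (3.35; a small GTPase). All 15 also passed with size factors, the mean of CPM and thinned cells, and without the top cell, M1 and M2, or M3, and 12 of the 15 are guide genes of the clusters.

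Of the 15 genes furthest toward OPr, 7 are genes of cartilage. *Matn3* (ENSMUSG00000020583.4, chromosome 12, 8947929 to 8972028) encodes matrilin-3, which bridges collagen and aggrecan in cartilage. It had 1130.3 CPM (1118 to 1143) in OPr and 4 counts in mOPr, a ratio of -9.79, and 23 of 44 OPr cells detected it and no mOPr cell. *3110079O15Rik*, now named Snorc, encodes a membrane proteoglycan of chondrocytes, with a ratio of -8.58 and detection in 28 OPr cells. *Lect1*, now Cnmd, encodes chondromodulin, which keeps vessels out of cartilage, and stood at 4613 CPM (4589 to 4638) against 40.7 in mOPr, where 1 M4 cell held 86.0% of counts. The type IX collagen genes *Col9a3* (-5.56) and *Col9a2* (-4.61), *Chadl* (-4.72; a relative of chondroadherin) and *Mia* (-4.95; a small protein chondrocytes secrete) also ranked among the 15 of 187.

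Genes with other roles made up the other 8 OPr names. *Slc38a3*, a glutamine transporter gene, had 278 CPM (272 to 284) in OPr and no count in mOPr, at least 1350.5-fold higher. *Ncmap*, for a myelin-associated protein, and *Fam89a* had 1 mOPr count each and were 2527-fold (453 to 99839.8) and 1113-fold (199.5 to 43978) higher in OPr. *Unc5c*, a netrin receptor gene, had a ratio of -6.58, *Cemip*, whose product starts hyaluronan breakdown, -4.74, and the cytokine gene *Il17d* -4.61. *Ppa1* encodes a pyrophosphatase and *Smpd3* a sphingomyelinase needed for bone mineralization, with ratios of -5.68 and -4.38. M3 cells held 98.5% of the OPr counts of *Ppa1* and 98.9% of those of *Smpd3*. Without M3, the ratio of *Ppa1* was -0.22, *Smpd3* turned to 1.41, and *Unc5c*, at -5.07, no longer passed the size rule. Of the 15 names, 13 are guide genes.

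**Figure D3:**
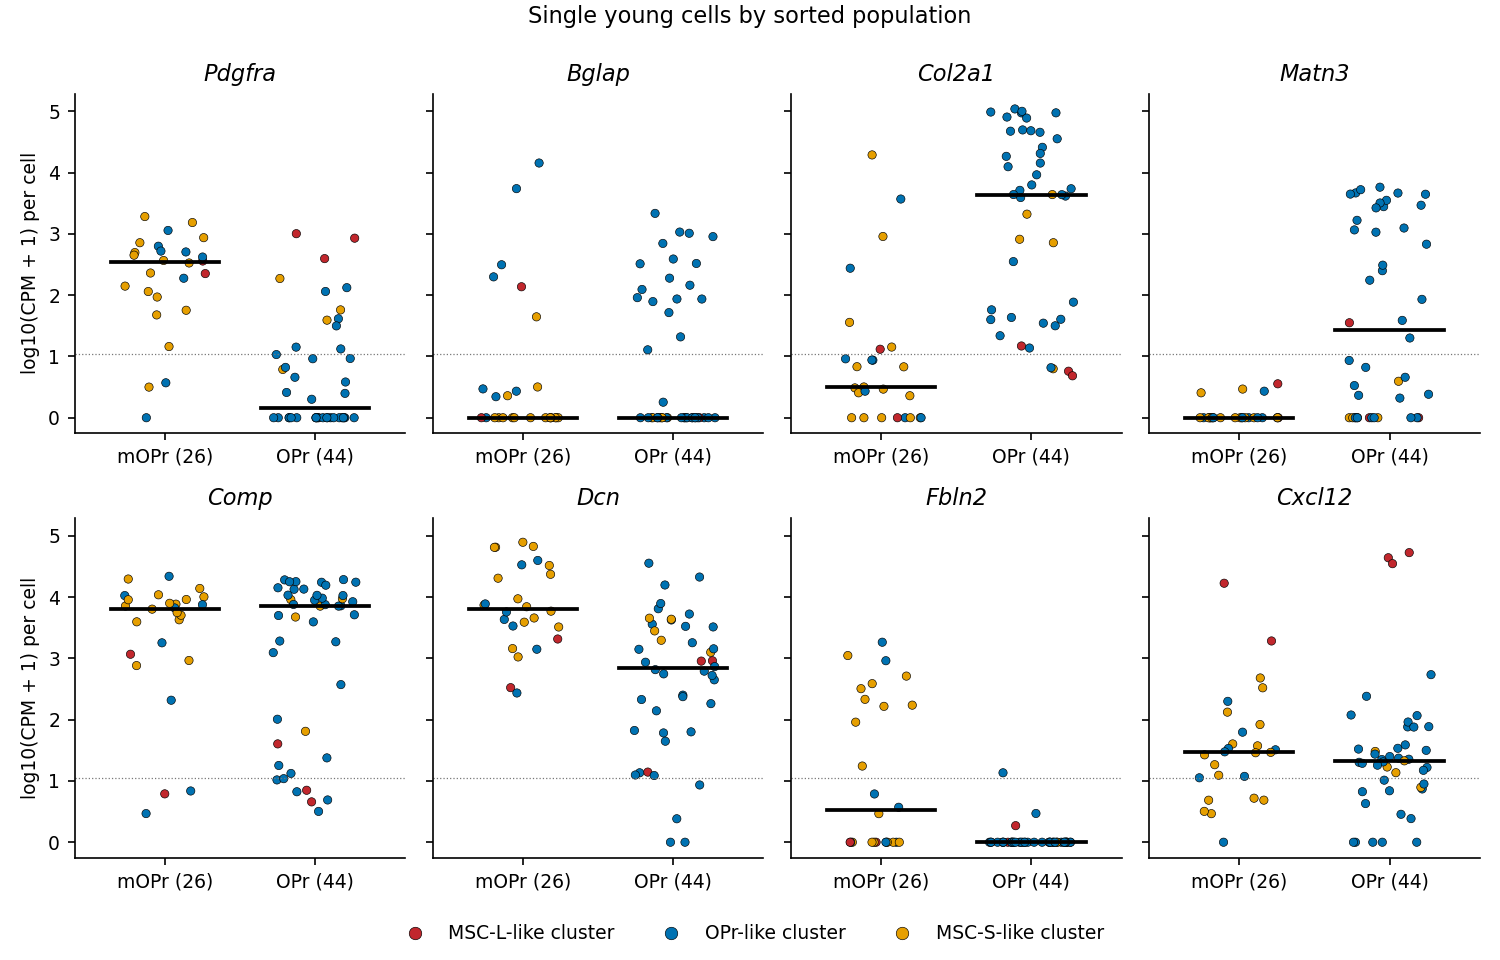
Level of 8 genes in each of the 70 cells as log10 of CPM plus 1, coloured by cluster identity, with a bar at the median and a dotted line at 10 CPM. *Col2a1* is detected in 7 of 26 mOPr and 40 of 44 OPr cells, and *Fbln2* in 11 and 1.

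A list of 18 cartilage genes was read as a group. Its members were chosen with earlier results of these data known, and 16 of the 18 are guide genes. The counts describe the list and are no separate evidence. None was higher in mOPr and 13 of 18 were higher in OPr. Over all genes tested, 6.43% were higher in mOPr and 9.13% in OPr, the shares to set beside the count of each list below. The median ratio was -3.39 (-3.49 and -3.56 in the ranges). A median mOPr cell carried 5 of the 18 genes and a median OPr cell 15. Among OPr cells the medians were 18 in M3, 16 in M4 and 7 in M5, against 3 in the mOPr cells of M5. *Col2a1*, for the main collagen of cartilage, had 23589 CPM (23534 to 23645) in OPr and 1142 (1124 to 1159) in mOPr, with detection in 40 of 44 and 7 of 26 cells (88.4% and 38.5% after thinning). M3 held 90.6% of the OPr counts, and 1 M15 cell 75.3% of the mOPr counts.

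Aggrecan, the large proteoglycan that holds water in cartilage, is encoded by *Acan*, which had a ratio of -2.93 (402 and 3067 CPM). The ratio of *Col9a1* was -4.37, that of *Col11a1* -2.42, *Col11a2* -3.50, *Hapln1*, which links aggrecan to hyaluronan, -3.28, *Ucma*, of unmineralized cartilage, -4.06, and *Chad*, for chondroadherin, -2.27. *Matn1* had 1 mOPr count and was 794-fold (142 to 31388) higher in OPr. Of the cartilage list, 5 genes did not pass. *Sox9*, the factor that starts chondrocyte fate, had 671 and 895 CPM, and its partners *Sox5* 222 and 222 and *Sox6* 73.4 and 102. *Comp*, a matrix gene of cartilage and tendon, had 7341 and 7632 CPM, and *Epyc*, for a cartilage proteoglycan, a ratio of -0.77. Without M3 the cartilage median was -1.66 and 8 of 17 genes still passed, but not *Col2a1* (-1.56), *Col9a1* (-1.81), *Col11a1* (-0.58), *Matn1* (-1.42) and *Chad* (-1.66), while *Sox9*, with 80% of its OPr counts in M3, turned to 1.30 and *Comp* to 0.52.

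Chondrocytes swell before cartilage turns to bone, and this hypertrophic stage has its own genes. *Panx3*, a channel gene of hypertrophic chondrocytes and osteoblasts, had 379.5 CPM in OPr and no count in mOPr, at least 1845-fold higher, and was detected in 14 of 15 M3 cells and in no cell of another cluster. *Col10a1*, for the collagen of hypertrophic cartilage, had 2 counts in mOPr and was 2365-fold (654 to 19530.3) higher in OPr, in 9 cells, 1 of which held 49.5% of counts. Without M3 neither passed, with *Panx3* at -0.07 and *Col10a1*, which has 42.0% of its OPr counts in M5, still at -7.57. The collagenase gene *Mmp13* ran toward mOPr (5.01), with 56.4% of counts in 1 M12 cell. *Ihh*, a growth plate signal, had 110 counts in OPr and none in mOPr, 68.2% of them in 1 cell, too few cells to be tested.

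Both gates aim at bone-forming progenitors, so osteoblast genes were read next. Osteoblast genes ran in no common direction. Of 17 genes tested on a list of 20, 4 were higher in mOPr and 2 in OPr, and the median ratio of -0.16 changed sign with scaling (0.52 with the mean of CPM and 0.48 with size factors), so no direction is given. *Runx2* and *Sp7*, the transcription factors of osteoblast commitment, did not pass, with *Runx2* at 118 and 202 CPM and *Sp7* at 28.2 and 49.1. The phosphatase gene *Alpl* had 458 and 876 CPM, with opposite signs in the ranges (0.75 and -3.36). *Col1a1*, for the main collagen of bone, had 5909 and 1704 CPM and did not pass (-0.09 and 2.60), yet 22 of 26 mOPr cells detected it against 14 of 44 OPr cells, with medians of 1151 and 2.77 CPM. In M3 its level was 7.50 CPM. *Sparc*, for osteonectin, was detected in every cell of both, at medians of 6969 and 22512 CPM.

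The 4 osteoblast genes higher in mOPr, *Bglap* among them, are genes of late stages. *Spp1*, for osteopontin, had a ratio of 1.65 (3302 and 1049 CPM), *Bglap2* 2.26, and the osteocyte gene *Dmp1* 2.17 on 105 and 24 counts. Without the top cell of each population none of the 3 passed, nor did *Bglap*, but only *Bglap* fell under 2-fold over all cells, and *Spp1* (1.82), *Bglap2* (1.74) and *Dmp1* (1.93) did not. Without M3, *Spp1* (1.05) and *Dmp1* (2.96) did not pass. *Pth1r*, the parathyroid hormone receptor, ran toward OPr (-1.71; 9 of 26 and 31 of 44 cells) and did not pass without M3 (-0.34) or with size factors (-0.56). The M5 cells of mOPr carried a median of 14 of the 20 genes, the M5 cells of OPr 6.5 and M3 cells 9. Several of those M5 cells of OPr had fewer counts than any M5 cell of mOPr.

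Fibroblast progenitors of connective tissue share Sca-1, CD34 and a matrix program with MSC-S. Of 10 such genes tested on a list of 14, 5 were higher in mOPr and 1 in OPr, with a median of 1.93 (1.65 and 2.41). The members were chosen with earlier results of these data known, and 11 of the 14 are guide genes. The direction describes this list and is no separate evidence. *Cd34*, a surface sialomucin gene, had a ratio of 3.04 with 5 and 1 cells, *Dpt*, for dermatopontin, 4.14 with 8 and 3 cells, and *Col14a1*, for a fibril-associated collagen, 4.22. *Gsn*, for the actin-severing gelsolin, was detected in 26 of 26 and 39 of 44 cells, at 7316 CPM (7272 to 7359.5) and 1824 (1809 to 1840.0). *Ly6a*, by which cells of the gate were excluded, was the 1 gene higher in OPr (-2.62), with 59% of its OPr counts in 1 cell. *Clec3b* and *Mfap5* had no count in OPr and 498 and 1430 in mOPr, at least 334-fold and at least 959-fold higher, in 2 and 4 cells, too few to be tested. Without M3, *Dpt* (3.63), *Gsn* (1.53) and *Ly6a* (-1.42) did not pass.

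Periosteum and joint lining are neighbouring sources of fibroblast-like cells. Of 8 periosteal genes, 2 were higher in mOPr and none in OPr: *Thbs2*, for thrombospondin-2, had a ratio of 2.36 with 18 and 11 cells, and *Igfbp5*, which binds insulin-like growth factors, 2.66 with 25 and 22 cells (100% and 58.1% after thinning). Of 9 articular and synovial genes tested, *Clu* (1.23; clusterin, an extracellular chaperone) and *Htra1* were higher in mOPr. *Prg4*, for the joint lubricant lubricin, was higher in OPr (-1.62), where 1 M4 cell held 44.9% of its counts, while 22 of 26 mOPr cells and 23 of 44 OPr cells detected it. *Prg4* (-1.07) and *Clu* (1.29) did not pass without the top cell, and *Clu* fell to 0.62 without M3. None of 4 tendon genes tested passed.

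Collagen genes, read as a family, passed in both directions. Of 33 collagen genes tested, 6 were higher in mOPr and 8 in OPr. The 8 were *Col2a1*, *Col9a1*, *Col9a2*, *Col9a3*, *Col11a1*, *Col11a2*, *Col10a1* and *Col27a1* (-2.49). Toward mOPr ran *Col3a1* (1.35), which forms fibrils of soft tissue and was detected in 24 of 26 and 12 of 44 cells (92.3% and 37.2% after thinning), *Col5a2* (1.99) and *Col5a3* (1.57), of the type V collagen that starts fibrils, *Col4a1* (1.35), of basement membrane, *Col14a1* and *Col25a1* (2.53). Without M3, 3 of 30 tested were higher in mOPr and 3 in OPr. *Col2a1*, *Col9a1*, *Col11a1* and *Col10a1* did not pass there, with the ratios given above. *Col3a1* (0.75), *Col4a1* (0.79), *Col5a2* (1.52), *Col25a1* (3.8) and *Col27a1* (-0.76) did not pass either. Without the top cell, *Col4a1* (0.86), *Col5a3* (1.06) and *Col25a1* (1.54) did not pass.

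Small leucine-rich proteoglycans coat collagen fibrils. Of 12 tested, *Dcn*, for decorin, was higher in mOPr and *Chad* in OPr, near the shares of 6.43% and 9.13% over all genes tested. *Dcn* reached 20605 CPM (20532 to 20679) and 3476 (3454 to 3497), a ratio of 2.57, with per-cell medians of 6449 and 696 CPM, and every mOPr cell detected it. Among 14 matrix proteases and inhibitors tested, *Mmp2* (1.54; a gelatinase), *Mmp13* and *Timp2* (1.40; an inhibitor of these enzymes) were higher in mOPr. The inhibitor gene *Timp1* was higher in OPr (-1.66), did not pass under size factors (-1.54), the mean of CPM (-1.39) or thinned cells (-1.54), and turned to 1.81 without M3. *Timp2* did not pass without M3 (1.12) or without M1 and M2 (1.31).

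Signals that steer skeletal fate were read by family. In the insulin-like growth factor family, 3 of 8 genes tested were higher in mOPr and none in OPr, where 6.43% and 9.13% of all genes tested were. The 3 were the receptor gene *Igf1r* (1.52), *Igfbp5* and *Igfbp6* (2.51; 18 of 26 and 4 of 44 cells). The family median was 1.14 (0.50 and 1.89 in the ranges), and 0.70 without M3. Of 6 platelet-derived growth factor genes tested, the ligand gene *Pdgfc* was higher in mOPr (1.87). In the BMP and TGF-β family, 6 of 32 were higher in mOPr and 4 in OPr, where 6.43% and 9.13% of all genes tested were. The ligand *Bmp4* (3.43; 310.5 and 27.9 CPM) and *Bmp2* (1.19), the inhibitor *Smad6* (1.61) and the latent TGF-β binding genes *Ltbp2* (1.23), *Ltbp3* (1.39) and *Ltbp4* ran toward mOPr. The secreted BMP antagonists *Chrdl1* (-4.09), *Nog* (-3.95) and *Grem1* (-3.03) ran toward OPr with the ligand *Bmp5* (-1.62). Without M1 and M2, *Grem1* (-0.01), *Pdgfc* (1.8) and *Ltbp3* (1.20) did not pass, nor *Nog* (-1.88), *Pdgfc* (1.33), *Smad6* (1.17), *Ltbp2* (0.74) and *Ltbp3* (1.14) without M3, nor *Bmp2* (0.94), *Bmp5* (-0.91) and *Smad6* (1.14) with the mean of CPM.

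Wnt signals favour bone over cartilage. Of 20 Wnt genes tested, 6 were higher in OPr and 1 in mOPr, where 9.13% and 6.43% of all genes tested were. The median was -0.83, the same with the gene at 0 set to its bound, and -0.40 with thinned cells. In the shared clusters it was 0.18 (M5) and 0.0 (M15). *Wnt11* (-3.12; 23 of 44 and 5 of 26 cells) and *Wnt4* (-2.68) encode ligands, and *Frzb* (-4.13) and *Sfrp5* secreted antagonists. *Sfrp5* had no mOPr count and was at least 235-fold higher, with 72.3% of its counts in 1 cell. *Rspo4*, for a Wnt enhancer, and *Lef1*, for a factor that acts in the nucleus, had 1 mOPr count each and were 1428-fold (256 to 56411) and 193-fold (34.4 to 7640.5) higher in OPr. *Wnt9a* ran toward mOPr (1.56). Without M3, *Wnt4* (-0.92), *Wnt9a* (1.16) and *Lef1* (-3.28) did not pass and *Rspo4* turned to 0.10. Of 7 FGF genes tested, *Fgfr3*, the receptor that slows cartilage growth, was higher in OPr (-2.08; 30 of 44 and 10 of 26 cells) and did not pass without M3 (-1.60) or with size factors (-1.37). None of 6 hedgehog genes tested passed, and all 6 ratios were below 0. Of 7 Notch genes tested, the target *Hey1* was higher in mOPr (2.60) and *Heyl* in OPr (-1.96). *Hey1* was detected in 2 mOPr cells, and testing asked for at least 5 cells over both populations, so OPr cells detected it too. *Hey1* did not pass without M1 and M2 (1.14) or without M3 (2.18), and *Heyl* turned to 0.57 without M1 and M2.

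Marrow LepR-positive stroma feeds blood stem cells with CXCL12 and stem cell factor and also makes interleukin-7, and the gates excluded LepR. Some transcripts of that stroma lay mostly in a few cells, and others were spread wider. Of 13 tested on a list of 15, 1 passed: *Il7*, with 1 mOPr count, was 234-fold (41.7 to 9251) higher in OPr, and it did not pass without M1 and M2 (-2.03) or without M3 (-4.28). *Cxcl12* stood at 552 CPM (540.5 to 565) and 4525 (4501 to 4549.9), yet 99.3% of OPr counts lay in the 3 M1 cells and 89.1% of mOPr counts in the 2 M2 cells, and the ranges gave -5.87 and 4.21. *Lepr* was detected in 10 of 26 and 18 of 44 cells, with 74.8% of OPr counts in M1 but 3.85% of mOPr counts in M2. M1 cells carried 14 to 15 of the 15 genes and M2 cells 9 to 10, against a median of 5 over all mOPr and 4 over all OPr cells. The list median was -1.65 over all cells and 0.68 without M1 and M2. The lipase gene *Lpl*, the only adipocyte gene of 5 tested to pass (-3.43), turned to 0.53 without them. Of 10 niche factor genes tested, *Spp1* was higher in mOPr and *Il7* and *Il15* (-2.24) in OPr, the last not without M3 (-2.60). The median of the niche factor list was -1.95 over all cells and 1.06 without M1 and M2.

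Inflammatory stroma is the subject of the wider study, so those genes were read in the young cells. Of 6 inflammatory genes tested, 2 were higher in mOPr and 1 in OPr. *Nfkbia*, for the inhibitor induced by NF-κB, had a ratio of 1.43 and was detected in 24 of 26 and 33 of 44 cells. *Cxcl1*, for a neutrophil attractant, had a ratio of 7.09, with 6 mOPr cells and 1 OPr cell detecting it and 63% of counts in 1 cell. The adhesion gene *Icam1* was higher in OPr (-1.28) and turned to 0.12 with size factors. *Nfkbia* did not pass without M3 (0.93). None of 15 immediate early genes passed, with a median of 0.26.

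Transcription factors of mesenchyme and markers of skeletal stem cells came last among the skeletal lists. *Twist1*, which holds back osteoblast maturation, was higher in mOPr (2.44) and detected in 16 of 26 and 4 of 44 cells (65.4% and 14.0% after thinning). *Klf2*, a zinc finger factor, also passed (1.36), but not without M3 (0.82), and the other 15 tested did not. Of 11 skeletal stem cell genes tested, *Pthlh*, for a hormone-like signal that delays hypertrophy, was higher in mOPr (3.62; 8 of 26 and 3 of 44 cells) and *Grem1* in OPr. These counts are near the shares over all genes tested, 6.43% and 9.13%, so no direction of the list is given. Among 11 Hox genes tested, *Hoxd8* was higher in mOPr (1.73) and *Hoxc8* (-2.08) and *Hoxc9* (-1.75) in OPr. Of 72 ribosomal protein genes tested, *Rpl9* (2.55) was higher in mOPr and *Rpl39l* (-2.05) and *Rps6* (-1.85) in OPr, with a median of -0.18. *Hoxc8* (-3.38) and *Rpl9* (1.8) did not pass without the top cell, nor *Rpl9* (2.36), *Rpl39l* (-2.04) and *Rps6* (-1.19) without M3.

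Cells of other lineages can enter a gate, so their marker lists were read in both populations. No young cell carried more than 3 of 15 hematopoietic genes or more than 1 of 10 endothelial genes, and no hematopoietic gene passed. The summed hematopoietic level was 87.6 CPM in mOPr and 129 in OPr, 98.4% and 80.1% of it from *Arhgdib*, with 4 genes at 0 in mOPr and 1 in OPr. *Vwf*, of 2 endothelial genes tested, was higher in OPr (-1.32), and *Alas2*, the 1 erythroid gene tested, too (-2.0; 9 and 161 counts), and neither passed without M3 (-1.29 and -1.06). *Acp5*, for the acid phosphatase of osteoclasts, was higher in mOPr (2.68; 6 and 4 cells). None of 5 pericyte and smooth muscle genes and not the 1 skeletal muscle gene tested passed.

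A gene of the Schwann cell lineage and 3 genes of dividing cells were higher in OPr. *Cdh19*, a cadherin gene of the Schwann cell lineage, had no mOPr count, was at least 200.4-fold higher in OPr, and had 63% of its counts in 1 M5 cell. It still passed without that cell, but not without M3, where its ratio was -5.76. An M3 cell carried 13 of 18 cell cycle genes, where no other OPr cell and no mOPr cell carried more than 3. *Ccnb2* (-1.61), *Tpx2* (-2.55) and *Mcm3* (at least 136-fold higher, with no mOPr count) were higher in OPr, of 6 tested, with 47.5%, 31.9% and 43.1% of OPr counts in the top cell of each, and *Ccnb2* (-0.91), *Tpx2* (0.97) and *Mcm3* (-3.97) did not pass without M3.

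Of the 110 genes named as passing in these lists and rankings, more stopped passing without M3 than under any other choice. The losses were 48 without M3, 28 with thinned cells, 16 without top cells, 15 with size factors, 10 without M1 and M2, 8 with the mean of CPM and 3 without the cell carrying Schwann cell genes. Losses not given above follow. With thinned cells, where the filter keeps fewer genes, they were *Ly6a* (-2.44), *Dmp1* (2.29), *Cd34* (3.18), *Dpt* (3.55), *Il7* (-3.86), *Vwf* (-1.71), *Alas2* (-1.66), *Ccnb2* (-0.63), *Tpx2* (-3.52), *Mcm3* (-4.95), *Col25a1* (2.99), *Col4a1* (1.75), *Bmp5* (-0.97), *Nog* (-3.54), *Smad6* (1.93), *Wnt9a* (1.58), *Lef1* (-4.17), *Hey1* (2.20), *Il15* (-1.29), *Icam1* (-0.82), *Hoxc8* (-1.55), *Hoxc9* (-2.02), *Hoxd8* (1.63), *Rpl39l* (-1.05), *Rps6* (-2.16), *Bmp2* (0.94) and *Rpl9* (2.08). With size factors they were *Col3a1* (1.57), *Clu* (1.34), *Alas2* (-2.09), *Ccnb2* (-0.75), *Col4a1* (1.91), *Bmp5* (-0.57), *Smad6* (1.44), *Ltbp2* (1.65), *Il15* (-1.76), *Rpl39l* (-1.67) and *Rpl9* (2.43), and with the mean of CPM *Dpt* (3.67), *Hey1* (2.21), *Icam1* (-0.68) and *Rpl9* (2.29). Without the top cell they were *Mcm3* (-4.12), *Bmp2* (1.1), *Ltbp2* (1.21), *Hey1* (1.40) and *Icam1* (-0.50), without M1 and M2 *Rpl39l* (-1.0) and *Rps6* (-1.62), and without the cell carrying Schwann cell genes *Vwf* (-1.08), *Smad6* (1.58) and *Sfrp5* (-3.88).

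Since the populations differ in cluster mix, the clusters they share were compared on their own. The named genes were picked over all cells, these among them, so their counts here describe the clusters and are no separate evidence. In M5, with 7 mOPr and 14 OPr cells, all 15 genes named for mOPr had ratios of at least 1, and 11 of the 15 named for OPr had -1 or less, while 2 had at least 1 (*Ppa1* 2.40 and *Smpd3* 2.24). In M15, with 7 and 5 cells, 13 of the mOPr genes had at least 1, and 10 of the OPr genes had -1 or less and 1 at least 1 (*Smpd3* 3.54). Of all genes tested, 30.1% had at least 1 and 31.3% -1 or less in M5, and 27% and 24.1% in M15. The M5 cells of OPr include the 1 that carries Schwann cell genes, which holds 95.0% of their *Ncmap* counts. Without it *Ncmap* went from -7.49 to -3.46 in M5, *Tppp3*, with 98.6% of their counts in it, from 1.16 to 6.24, and *Chadl*, with 45.1%, from -5.33 to -4.67, and the counts of 15 and 11 genes stayed. *Tnxb* had ratios of 9.09 in M5 and 4.28 in M15, *Fbln2* 8.50 and 5.72, *Col9a2* -3.69 and -3.28, and *Lect1* -5.71 and -2.70. *Col2a1* ran toward OPr in M5 (-5.02) and toward mOPr in M15 (1.14), where 1 cell holds most of its counts. The cartilage median was -1.76 in M5 and -0.83 in M15, and that of the fibroblast progenitor genes 3.13 and 0.92. Some other lists did not keep their sign. Periosteal genes stood at -1.44 and -0.69 (0.60 over all cells), and articular and synovial genes at -0.80 and -0.90 (0.85). Tendon genes stood at -3.60 and -0.41 (0.39), hypertrophic genes at 0.64 and 0.38 (-1.33), and Wnt genes at 0.18 and 0.0 (-0.83). These cells were chosen after the sort and the clustering, and few cells stand behind each value. Several M5 cells of OPr had fewer counts (79352 to 279872) than any M5 cell of mOPr (367500 or more).

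**Figure D4:**
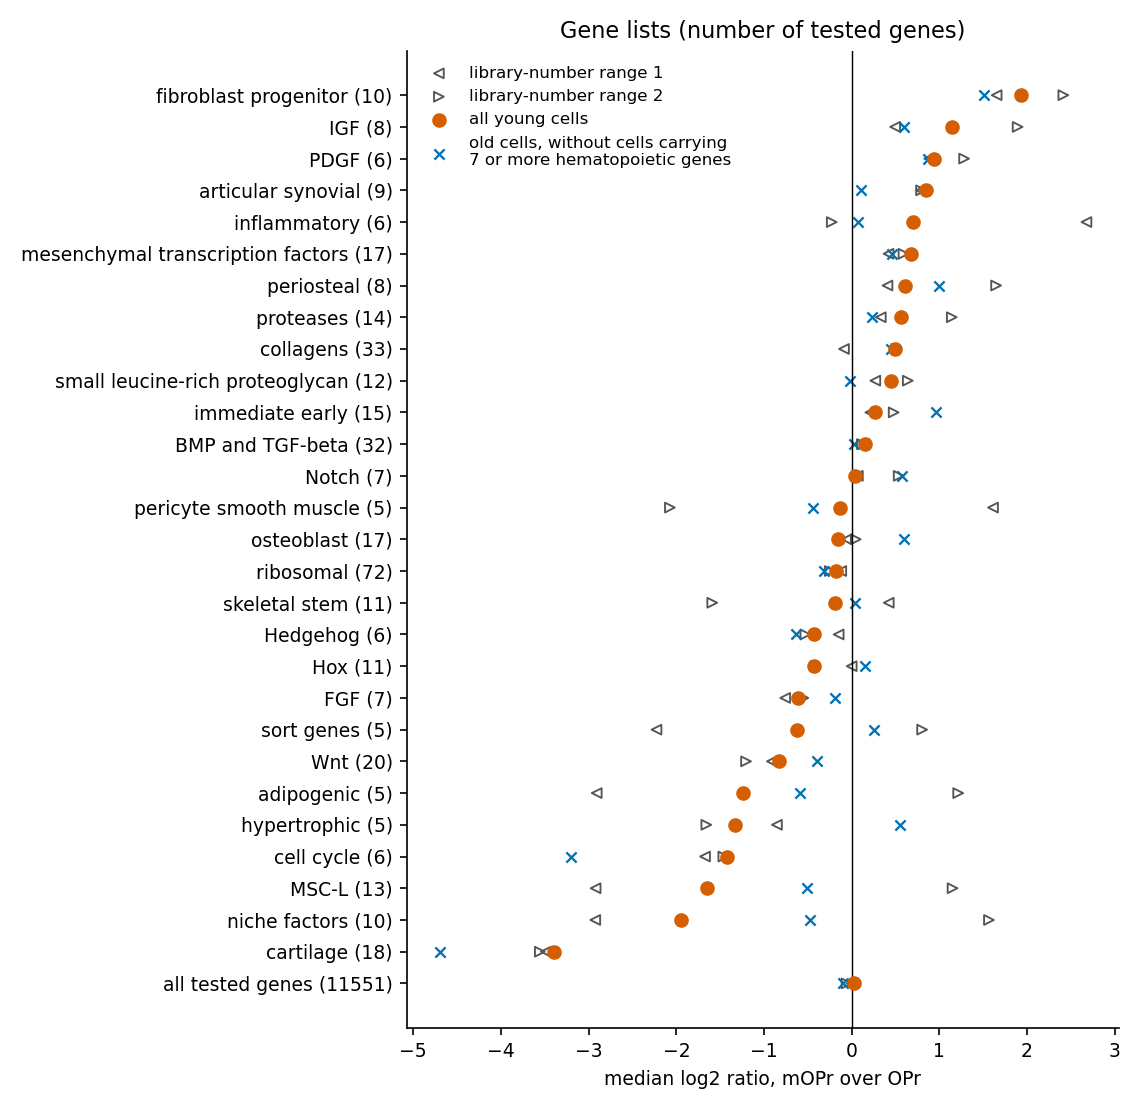
Median log2 ratio of mOPr over OPr for each gene list with at least 5 genes tested, for all young cells, the 2 library-number ranges and old cells without those carrying 7 or more hematopoietic genes. The cartilage list stands at -3.39 in young cells and the fibroblast progenitor list at 1.93.

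How near each population stands to the other stromal sorts was read from the whole profile. By this measure mOPr stood nearer to young MSC-S than to OPr, and OPr stood about equally near to MSC-S and mOPr. Over 11551 genes the correlation of log2 levels was 0.752 between mOPr and OPr. With MSC-S it was 0.828 for mOPr and 0.759 for OPr, and with MSC-L 0.628 for both. The profiles sum 59 MSC-S, 26 mOPr and 44 OPr cells, and the effect of these unequal numbers was not tested.

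Old mOPr (26 cells) and old OPr (29 cells) ask whether the contrast recurs in other animals. The ratios of the named genes differed between the ranges of old cells, most of all for OPr. Old OPr cells with 7 or more hematopoietic genes (8 cells) were left out, 3 of 10 in the first range and 5 of 19 in the second. Of the 15 genes named for OPr, 14 had old ratios of -1 or less, all but *Il17d* (-0.19), with *Lect1* at -8.86, *Col9a3* at -7.55 and *Matn3* at -3.61, and the cartilage median was -4.70. That held for the second range, where all 15 had -1 or less, and not for the first, where 2 did (-4.34 for *Unc5c* and -4.01 for *Ppa1*) and 3 had at least 1. The cartilage median was 0.35 in the first and -5.20 in the second, which holds all 4 old OPr cells of M3 and M4. Of the 15 named for mOPr, 8 had at least 1, with *Fbln2* at 7.31 and *Medag* at 4.93, and 3 had -1 or less: *Htra4* (-3.85), *Ackr3* (-1.87) and *Cdh13* (-1.25), all 3 in the second range only. In the first range 10 had at least 1 and none -1 or less, and in the second 7 and 3. Shares over all genes tested were taken for both ranges together, so counts by range have no share beside them. Of all 1055 genes higher in young OPr, 372 (35.3%) had -1 or less in old cells, where 23.3% of all tested genes did, and 183 (17.3%) had at least 1. Of the 743 higher in young mOPr, 191 (25.7%) had at least 1, where 17.4% of all did, and 162 (21.8%) had -1 or less. *Pdgfra* had an old ratio of 2.12 and *Bglap* 2.88, with 1 cell holding 80.8% of the *Bglap* counts of old mOPr. No old cell of either population fell in an MSC-S-like cluster (0 of 26 and 0 of 29), where 16 of 26 young mOPr cells did. MSC-L-like clusters held 14 of 26 old mOPr and 10 of 29 old OPr cells, against 2 of 26 and 3 of 44 young. These shares count all 29 old OPr cells, including the 8 left out of the ratios. The old sorts thus differ from the young ones in cluster mix.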

How the data were processed

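RNA of single sorted cells was sequenced by the authors and aligned to GRCm38.p4 with GSNAP (2015-09-29), and HTSeq counted unstranded reads per gene. The deposited table holds these raw counts for 46078 entries, of which 270 repeated symbols were summed, leaving 45771 nuclear and 37 mitochondrial genes. Of 661 columns, 237 were used and 0 were unmapped. Genes with at least 100 counts and detection in at least 5 cells of the 70 were tested by ratio only. List members were chosen with earlier results of these data known. Genes named outside the size ranking are members of the 35 lists. A fold for a gene at 0 takes 3 counts as its floor. Doublets were not called. Results for 1 gene are not reported here. Alternatives were the mean of CPM, size factors, pseudocounts, filters, thinning, ranges and cells left out. The procedure was tested on simulated data, and no outcome of that is reported here. Coordinates are from GENCODE vM21 (GRCm38). Ratios and intervals came from scipy 1.17.1 and pandas 2.3.3 on numpy 2.4.6 (Python 3.11.15), figures from matplotlib 3.10.9.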

Additional observations from a re-analysis of the deposited data

Results flagged for a closer look

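Compared between the ages were 104 genes that passed the size rule and are among the 30 largest or on a gene list, Hox and ribosomal genes apart. Of these, 2 were past 2-fold in opposite directions in young and old cells in every library-number range. *Cdh19* had a ratio of mOPr over OPr of -5.40 in young cells (-4.44 and -5.86 in the ranges) and 6.09 in old cells without those carrying 7 or more hematopoietic genes (6.29 and 5.96). Old mOPr had 71.3 CPM and old OPr 0.0624. In young OPr 63% of its counts lay in the 1 cell that carries Schwann cell genes, and in old mOPr 55.4% lay in 1 cell. *Heyl* had -1.96 in young cells (-1.97 and -2.80) and 3.32 in old cells (6.87 and 2.20). A single M1 cell held 67.8% of its young OPr counts, and 1 cell 40.1% of its old mOPr counts. Whether the difference between ages follows from these cells was not tested.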

How the results depend on the processing

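The ratios of 116 genes, 30 list medians, 4 cluster shares and the 2 numbers of genes that passed were taken again under up to 13 other settings; old cells, correlations, guide genes and shared clusters were not. Leaving out cells with hematopoietic or endothelial genes removed no cell. For the 110 genes named as passing, 657 retaken ratios counted as the same as the main ratio. Another 766 moved in size and kept their sign, and 7 turned sign. Of the retaken list medians, 375 counted as the same and 15 moved. The intervals on levels cover the counting of reads only, not this movement between settings. Of the settings, the one without M3 and the one without the cell carrying Schwann cell genes were chosen after seeing the data. The number of genes higher in mOPr, 743, was 2643 in range 1 alone, 2476 in range 2 alone and 1844 by the mean of the ranges, and the number higher in OPr, 1055, was 2788, 3014 and 2339, because each of these asks for 1 ratio where the rule asks for 3. With thinned cells, 493 genes were higher in OPr, of 8012 tested. The OPr-like share of OPr cells, 81.8%, was 61.5% in range 1 alone, which holds all 3 M1 cells. Among genes that passed, the ratio turned sign without M3 for *Smpd3* (1.41), *Tpx2* (0.97), *Timp1* (1.81) and *Rspo4* (0.10), without M1 and M2 for *Lpl* (0.53) and *Heyl* (0.57), and with size factors for *Icam1* (0.12); the cause was not tested. Among 6 genes that did not pass, the sign turned without M3 for *Sox9* (1.30) and *Comp* (0.52), without M1 and M2 for *Cxcl12* (0.84) and *Lepr* (0.52), with size factors for *Comp* (0.32), and in 1 range for *Cxcl12*, *Lepr* and *Col1a1*. No paired analysis was run, because no label names the mouse of a cell, and sets of library numbers within the second range were not used.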

Other observations

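Some genes too narrow to be tested carry the mark of a lineage, and they were picked here after their values were seen. *Atp6v0d2*, for a proton pump subunit of osteoclasts, had 393 counts in mOPr and 1 in OPr, in 3 mOPr cells, beside the higher *Acp5* of mOPr. Other osteoclast genes were near 0 in mOPr: *Mmp9* had 1 count, *Oscar* 9, and *Calcr*, *Dcstamp* and *Ocstamp* none. *Pi16*, a marker of fibroblast progenitors, had 714 counts in mOPr and 15 in OPr, with 91.2% of the mOPr counts in 1 cell. *Kera*, for keratocan, a tendon and cornea proteoglycan, had 396 and 2 counts, with 94.7% in 1 mOPr cell. *Tnmd*, for the tendon protein tenomodulin, had 159 and 4463 counts, and 1 cell held nearly all of the OPr counts. The pericyte gene *Rgs5* had 189 counts in OPr and none in mOPr, 93.7% of them in 1 cell, and the channel gene *Kcnj8* had 193 in mOPr, all in 1 cell, and none in OPr.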
